A study of Mus musculus with 9 samples.

Results

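Transcript levels of 7 genes of the colony-stimulating factor system were followed in sorted macrophages of mouse joint tissue and in cultured macrophages. The genes were taken by symbol from a count table of 53465 genes, and all 7 were found. They are Csf1r, the receptor for macrophage colony-stimulating factor (M-CSF) and interleukin 34, the ligand genes Csf1 (which encodes M-CSF) and Il34, the receptor chains Csf2ra, Csf2rb and Csf2rb2, and Csf3r, the receptor for granulocyte colony-stimulating factor (G-CSF). Bulk messenger RNA was sequenced from 9 samples in 3 groups of 3. Lining macrophages (libraries A, B and C) were sorted as CD45+ CD11b+ F4/80+ GFP+ cells and interstitial macrophages (D, E and F) as CD45+ CD11b+ F4/80+ GFP- cells, each from hind paw synovial tissue of healthy Cx3cr1-GFP mice, in which green fluorescent protein reports activity of the fractalkine receptor gene Cx3cr1. Bone marrow-derived macrophages (BMDM; G, H and I) came from C57BL/6 marrow kept for 5 days in MCSF-conditioned medium. BMDM thus differ from the sorted cells in tissue, strain, culture, sorting and depth at once, and these cannot be told apart. The labels give no age or number of animals, nor whether samples of a group are separate animals, so p-values measure the spread between these samples.

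CSF1R is a receptor tyrosine kinase on which tissue macrophages depend for survival and proliferation, and its ligands M-CSF and interleukin 34 are made largely by neighbouring stromal and epithelial cells. The receptor for granulocyte-macrophage colony-stimulating factor (GM-CSF) joins an alpha chain, CSF2RA, that binds the cytokine to a beta chain, CSF2RB, that signals through the kinase JAK2 and STAT5. CSF2RB also serves interleukins 3 and 5, while mice carry a close relative, CSF2RB2, that serves interleukin 3 alone. CSF3R signals mainly through STAT3 and is best known from neutrophils.

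The libraries held 2194920 to 11137451 counts in lining, 2238261 to 10807462 in interstitial and 19427273 to 22499823 in BMDM samples. A floor of 3 counts was worth 0.269 to 1.37 CPM (counts rescaled so that libraries of unequal depth can be compared) in a sorted library and 0.133 to 0.154 CPM in a BMDM library, and covers counting error only. Cx3cr1, the gene behind the sort, had 663 to 775 CPM in lining, 2.66 to 7.86 CPM in interstitial and 236 to 311 CPM in BMDM samples. All 7 macrophage and sort markers were detected in each group, with summed levels of 4169 to 4764 CPM in lining, 2419 to 2814 CPM in interstitial and 2619 to 2850 CPM in BMDM samples. Interstitial F and lining C stood at the upper end of their groups for several cytokine response genes given below, so results were also computed without these libraries together, a choice made after their values were seen. In bulk samples, fewer cells of a type and less RNA per cell cannot be told apart.

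Csf1r was by far the most abundant of these transcripts in all 3 groups, and Csf1, Il34 and Csf3r were the least abundant. Compared per exonic length (RPKM, CPM divided by kilobases of exon), mean levels ran in the same order in lining, interstitial and BMDM samples, from Csf1r through Csf2ra, Csf2rb, Csf2rb2, Csf3r and Csf1 to Il34. Csf1r averaged 1212 ± 128 RPKM in lining, 1095 ± 283 in interstitial and 524 ± 17.8 in BMDM samples (SD, n = 3 each). Csf2ra followed at 138 ± 21.9, 135 ± 33.3 and 78.1 ± 0.993 RPKM in the same groups. Neighbours in this order were not always separated by their libraries. The ranges of Csf2rb and Csf2rb2 overlapped in lining and in BMDM, though not in interstitial samples, and those of Csf3r and Csf1 overlapped in interstitial samples.

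**Figure D1:**
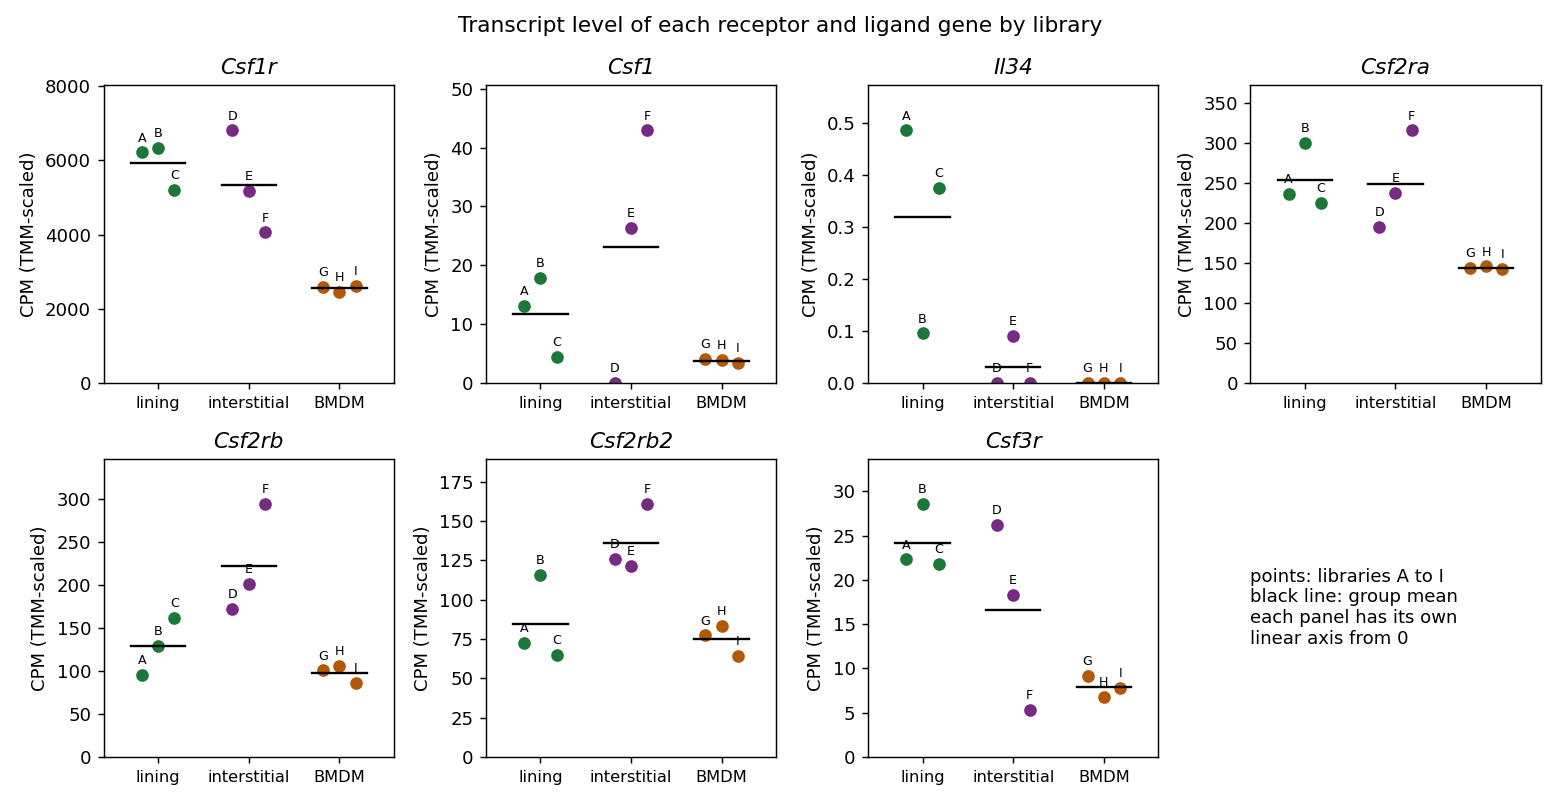
Level of each of the 7 genes in CPM on a linear axis from 0, with 1 point per library named by its letter and a black line at the group mean, for lining, interstitial and BMDM samples. All BMDM points for Csf1r and Csf2ra lie below all sorted ones, and interstitial F is the highest point for Csf1, Csf2ra, Csf2rb and Csf2rb2 and the lowest of the sorted points for Csf1r and Csf3r.

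**Figure D2:**
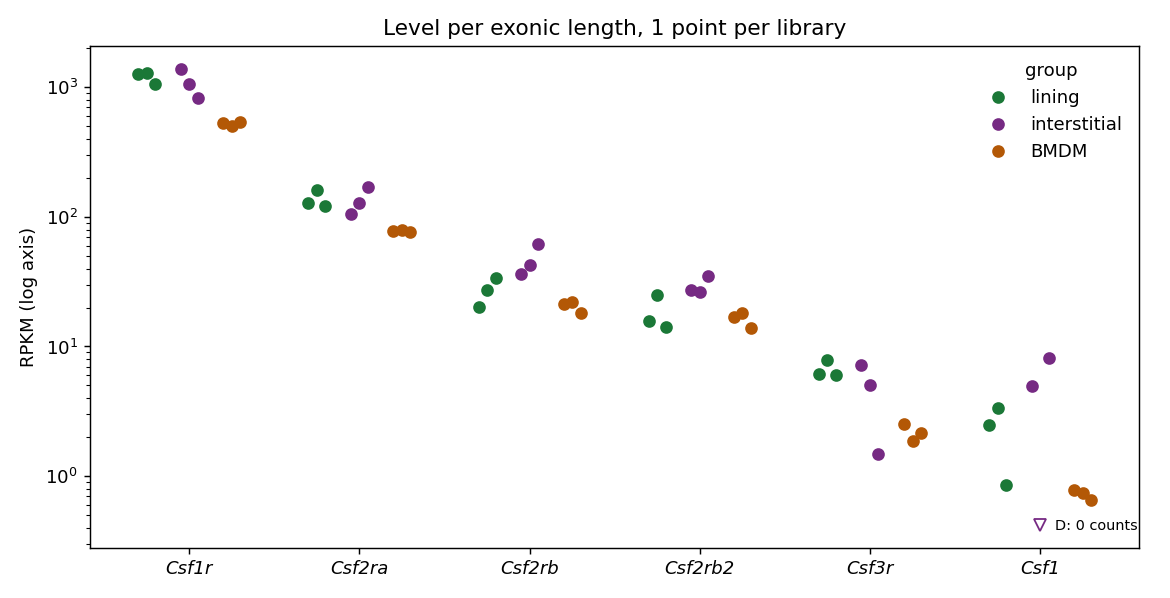
Level per exonic length (RPKM, log axis) of 6 genes, with 1 point per library and colour for the group. Csf1r lies well above the other genes in every library, and the open triangle marks interstitial D, where Csf1 had 0 counts.

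Csf1r, at chr18:61105572-61132149 on the plus strand of GRCm38, was among the most abundant transcripts of every library. It had 6215, 6346 and 5207 CPM in lining A to C, 6806, 5180 and 4061 CPM in interstitial D to F and 2587, 2461 and 2627 CPM in BMDM G to I. Ranked by RPKM among all genes of the table, it stood between positions 24 and 29 in lining, 19 and 37 in interstitial and 47 and 52 in BMDM libraries. Every sorted library lay above every BMDM library, as was the case for 29.2% of all 12610 tested genes in lining against BMDM and 28.4% in interstitial against BMDM, and the lining and interstitial libraries overlapped. Csf1r was 2.32-fold higher in lining than in BMDM samples (log2 fold change 1.21 ± 0.18, SE; edgeR quasi-likelihood test, adjusted p = 2.00e-04). It was 2.09-fold higher in interstitial than in BMDM samples (1.06 ± 0.18, adjusted p = 4.99e-04). Leaving out each library in turn kept both calls. Between lining and interstitial samples the log2 difference was 0.15 ± 0.18 (95% interval -0.24 to 0.53, adjusted p = 0.718), and the refits that leave out a library ran from -0.049 without interstitial F to 0.33 without interstitial D. Hmgxb3 on the opposite strand shares 871 exonic bases with Csf1r, and the counting was strand-specific.

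The ligand transcripts were at the other end of the scale. Csf1 (chr3:107741048-107760469, minus strand) had 13.1, 17.8 and 4.51 CPM in lining A to C, from 27, 187 and 12 counts. It had 0, 26.4 and 42.9 CPM in interstitial D to F, from 0, 290 and 202 counts, and 4.11, 3.92 and 3.46 CPM in BMDM G to I, from 95, 79 and 75 counts. The interstitial group thus held both the lowest and the highest library of the series, and the 0 in library D allows up to 1.34 CPM. All lining libraries lay above all BMDM libraries. No difference passed the test, with log2 differences of -0.96 ± 0.96 for lining against interstitial (95% interval -3.14 to 1.21, adjusted p = 0.651) and 1.66 ± 0.98 for lining against BMDM (-0.55 to 3.88, adjusted p = 0.204). For interstitial against BMDM samples it was 2.63 ± 0.99 (0.40 to 4.85, adjusted p = 0.0561). Without library D the last of these log2 differences was 3.13 and passed (adjusted p = 2.70e-04). Without D, lining against BMDM also passed (adjusted p = 0.00930), and interstitial against BMDM passed without lining C (adjusted p = 0.0492).

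Il34 (chr8:110741829-110805924, minus strand) was at the limit of detection. It had 1 count in each lining library, 1 count in interstitial E, and 0 counts in interstitial D and F and in all BMDM libraries. It did not pass the filter on low counts and was not tested. Over the summed lining libraries 3 counts are worth 0.187 CPM, which is also where the Il34 total of that group stood. Csf1 made up 96.4%, 99.5% and 92.3% of the counts of Csf1 and Il34 together in lining A to C, with exact (Clopper-Pearson) 95% intervals whose lowest bound was 64.0%. In interstitial E and F the share was 99.7% and 100%, and in BMDM samples it was 100%. Interstitial D had no count of either gene and was left out of this share. The exact 2-sided permutation tests over libraries gave p = 0.2 for lining against interstitial, 0.1 for lining against BMDM and 0.4 for interstitial against BMDM samples, where 0.1 is the smallest value that 3 against 3 libraries allow.

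Fibroblasts are a known source of M-CSF, and fibroblast transcripts were present in the sorted samples. The 8 fibroblast markers summed to 171 to 304 CPM in lining, 191 to 693 CPM in interstitial and 2.08 to 2.88 CPM in BMDM samples, and Lum, a matrix proteoglycan, had 0 counts in BMDM. All 8 were called higher in lining and in interstitial samples than in BMDM, as were 23.1% and 23.4% of all tested genes. The lining call of Thy1 was lost in 6 of the 9 refits that leave out a library, and that of Pdgfra without BMDM G or BMDM I. In interstitial samples the Thy1 call was lost without interstitial F or any 1 BMDM library. The 6 endothelial markers summed to 31.5 to 43.9 CPM in lining, 44.5 to 136 CPM in interstitial and 139 to 146 CPM in BMDM samples. The BMDM sums came mostly from Vwf (88.6 to 100.2 CPM) and Kdr (43.7 to 49.0 CPM), and the 136 CPM of interstitial F mostly from Vwf (93.5 CPM). The list as a whole did not follow its sum, since 4 of its 6 markers were higher and 1 was lower in interstitial than in BMDM samples. Among all tested genes 23.4% were called higher and 21.3% lower in this comparison. The calls of Tie1 and Tek were lost without any 1 of the BMDM libraries, and that of Cdh5 without BMDM H. The part of these cells in the Csf1 values was not tested.

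The alpha chain of the GM-CSF receptor was higher in both kinds of joint macrophage than in BMDM. Csf2ra (chr19:61224402-61228418, minus strand) had 237, 301 and 226 CPM in lining A to C, 195, 238 and 316 CPM in interstitial D to F and 144, 146 and 142 CPM in BMDM G to I. The sorted libraries spread widely and overlapped each other, while all lay above the BMDM libraries. The gene was 1.77-fold higher in lining than in BMDM samples (log2 fold change 0.82 ± 0.18, adjusted p = 0.00271). It was 1.73-fold higher in interstitial than in BMDM samples (0.79 ± 0.18, adjusted p = 0.00310). Lining and interstitial samples differed by 0.03 ± 0.18 on the log2 scale, with a 95% interval of -0.36 to 0.41 (adjusted p = 0.957).

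The beta chains were higher in interstitial than in BMDM samples and were not called in lining against BMDM. Csf2rb (chr15:78325990-78351000, plus strand) had 95.5, 129 and 161 CPM in lining A to C, 172, 201 and 294 CPM in interstitial D to F and 101, 106 and 85.8 CPM in BMDM G to I. Csf2rb2 (chr15:78282517-78305603, minus strand) had 72.7, 116 and 65.0 CPM in lining, 126, 122 and 161 CPM in interstitial and 77.4, 83.4 and 64.3 CPM in BMDM samples. For each gene all interstitial libraries lay above all others, while lining and BMDM libraries overlapped. Csf2rb was 2.29-fold higher in interstitial than in BMDM samples (log2 fold change 1.19 ± 0.22, adjusted p = 8.64e-04). Csf2rb2 was 1.81-fold higher in interstitial than in BMDM samples (0.86 ± 0.22, adjusted p = 0.00644). Lining against BMDM gave 0.41 ± 0.22 for Csf2rb (95% interval -0.07 to 0.88, adjusted p = 0.151) and 0.19 ± 0.22 for Csf2rb2 (-0.28 to 0.66, adjusted p = 0.507), and neither passed.

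Between lining and interstitial samples neither beta chain was called, and the outcome changed with the settings. The log2 difference was -0.79 ± 0.22 for Csf2rb (95% interval -1.26 to -0.31, unadjusted p = 0.00374, adjusted p = 0.0582). For Csf2rb2 it was -0.67 ± 0.22 (-1.14 to -0.19, unadjusted p = 0.00978, adjusted p = 0.107). Csf2rb passed with DESeq2 (adjusted p = 0.0128), with limma-voom (adjusted p = 0.0418), without the filter on low counts (adjusted p = 0.0182), without lining C (adjusted p = 0.0442), without interstitial D (adjusted p = 0.0302) and when C and F were both left out (adjusted p = 0.0443). Csf2rb did not pass with DESeq2 size factors in edgeR, with a filter on a mean of at least 1 CPM or with only the 2 groups compared. Nor did it pass in the other refits that leave out a library (adjusted p up to 0.186). Csf2rb2 passed only with DESeq2 (adjusted p = 0.0401) and without lining B (adjusted p = 0.0228). In the other refits that leave out a library its adjusted p was up to 0.266. In this comparison 8.66% of all 12610 tested genes had every lining library below every interstitial one, as both beta chains did.

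These genes lie near each other on chromosome 15 and resemble each other closely, which limits how reads can be told apart. Their coding sequences of 2688 bases (Csf2rb) and 2634 bases (Csf2rb2) could be aligned over 2628 bases, of which 2503 (95.2%) were identical. Reads were 101 bases long, and 329 of the 4664 stretches of that length in the Csf2rb transcript (7.05%) also occurred unchanged in that of Csf2rb2, against 329 of 4640 (7.09%) in the other direction. Adjoining stretches of exon 4 show the extremes. The first line gives a 60-base stretch with no difference, at chr15:78338834-78338893 on the plus strand for Csf2rb and chr15:78294438-78294497 on the minus strand for Csf2rb2. The other lines give the stretch with the most differences, 13 bases in capitals, at chr15:78338893-78338952 on the plus strand for Csf2rb and chr15:78294379-78294438 on the minus strand for Csf2rb2 (GRCm38).
Shared by Csf2rb and Csf2rb2: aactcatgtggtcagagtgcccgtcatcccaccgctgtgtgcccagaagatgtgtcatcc
Csf2rb: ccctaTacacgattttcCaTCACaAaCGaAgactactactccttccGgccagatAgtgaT
Csf2rb2: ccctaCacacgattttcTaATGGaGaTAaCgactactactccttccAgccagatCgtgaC
A read of 101 bases is longer than the shared stretch printed here, but a read from 1 of the 329 shared 101-base stretches fits both genes. How such reads were assigned is not given in the sources used here, so the split between the beta chains is uncertain. Each gene also contains a microRNA gene, Mir7676-2 in Csf2rb and Mir7676-1 in Csf2rb2, that shares 62 exonic bases on the same strand.

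Csf2rb2 made up 43.2%, 47.3% and 28.7% of all beta chain counts in lining A to C, 42.3%, 37.6% and 35.4% in interstitial D to F and 43.5%, 44.1% and 42.8% in BMDM G to I. Lining C stood apart, with an exact 95% interval of 25.1% to 32.5% from 603 counts, while the BMDM samples lay within each other's intervals. Exact 2-sided permutation tests gave p = 0.9 for lining against interstitial, 0.8 for lining against BMDM and 0.1 for interstitial against BMDM samples (adjusted p = 0.9, 0.9 and 0.225 over the 9 tests of such shares and ratios). Csf2ra and Csf2rb were also compared as a log2 ratio of their levels per length, since both chains build the GM-CSF receptor. This ratio was 2.67, 2.58 and 1.85 in lining A to C, 1.55, 1.604 and 1.47 in interstitial D to F and 1.89, 1.83 and 2.10 in BMDM G to I. All lining libraries lay above all interstitial ones, with means of 2.37 ± 0.45 in lining, 1.54 ± 0.07 in interstitial and 1.94 ± 0.14 in BMDM samples (SD, n = 3 each). The exact p was 0.1 for lining against interstitial and for interstitial against BMDM, the smallest possible, and 0.3 for lining against BMDM (adjusted p = 0.225, 0.225 and 0.45). No share or ratio passed a threshold of 0.05, which this design cannot reach.

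**Figure D3:**
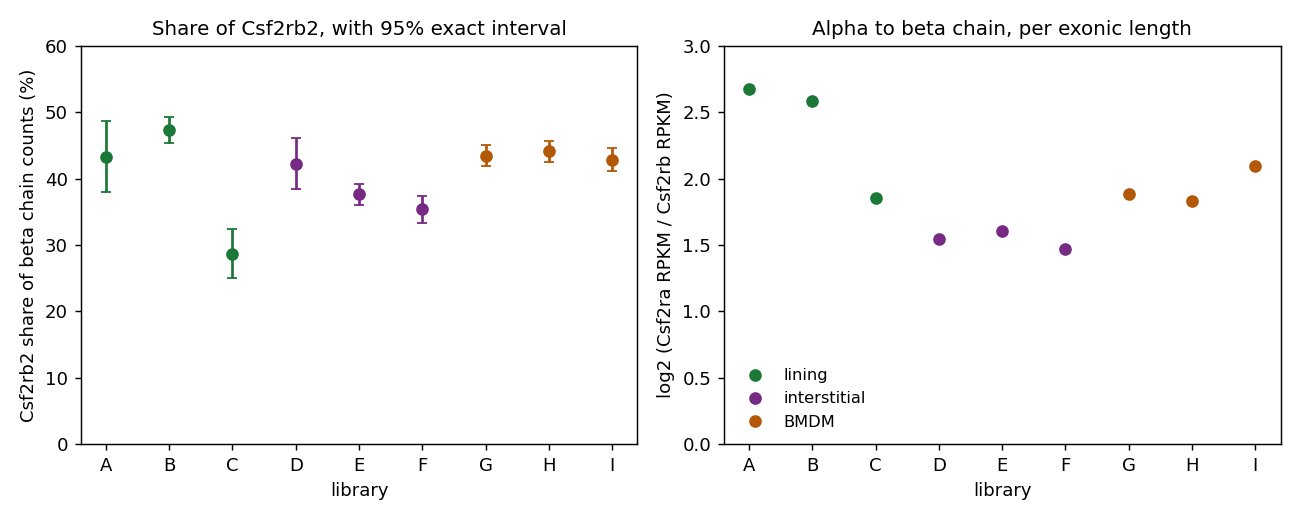
Left, share of Csf2rb2 among beta chain counts (percent, axis from 0) in each library with its exact 95% interval. Right, log2 ratio of Csf2ra to Csf2rb per exonic length. Lining C has the smallest share at 28.7%, and the interstitial ratios of 1.47 to 1.604 lie below those of all other libraries.

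Csf3r (chr4:126024550-126044440, plus strand), the G-CSF receptor, was called higher in lining than in BMDM samples. It had 22.3, 28.5 and 21.8 CPM in lining A to C, 26.2, 18.3 and 5.31 CPM in interstitial D to F and 9.17, 6.76 and 7.79 CPM in BMDM G to I. Lining libraries all lay above BMDM libraries, and the interstitial libraries spread across both ranges, with F below every other library. Csf3r was 3.08-fold higher in lining than in BMDM samples (log2 fold change 1.62 ± 0.45, adjusted p = 0.0115). This call was lost without lining B (adjusted p = 0.0598) or BMDM H (adjusted p = 0.0510). Interstitial against BMDM gave 1.04 ± 0.45 (95% interval 0.07 to 2.01, adjusted p = 0.0777), which passed with DESeq2 (adjusted p = 0.0464), without interstitial F (1.44, adjusted p = 0.00256) and when C and F were both left out (1.45, adjusted p = 0.00237). Lining against interstitial gave 0.58 ± 0.45 (-0.40 to 1.57, adjusted p = 0.531).

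Neutrophils carry the G-CSF receptor, so their transcripts are given beside it. The 12 neutrophil markers summed to 0.970, 7.44 and 1.13 CPM in lining A to C, 0, 84.4 and 87.3 CPM in interstitial D to F and 56.4, 71.8 and 57.8 CPM in BMDM G to I. Ly6g, Elane, Mpo and Mmp8, which encode a neutrophil surface protein and granule enzymes, had 0 counts in all lining libraries. In the same interstitial libraries D to F, Csf3r had 26.2, 18.3 and 5.31 CPM. The sum in F came mostly from Retnlg (62.2 CPM), and the other markers there had at most 8.07 CPM (S100a9). The part of neutrophils in the Csf3r values was not tested.

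Promoter sequences were at hand for Csf1, Csf2ra, Csf2rb2 and Csf3r, that is for 4 of the 7 genes, from RefSeq (GRCm38.p6), each from 250 bases before to 50 bases after the RefSeq start. For Csf3r and Csf2rb2 this start differs from the gene coordinates given above. They were searched on both strands for GAGGAAG, a core recognised by the macrophage factor PU.1, and for TTGCNNAA, a core of C/EBP sites. The promoters of Csf2ra and Csf3r, the receptor genes in this set that were higher in lining than in BMDM, are printed with GAGGAAG in capitals, Csf2ra from chr19:61228369-61228668 on the minus strand and Csf3r from chr4:126024409-126024708 on the plus strand.
Csf2ra promoter: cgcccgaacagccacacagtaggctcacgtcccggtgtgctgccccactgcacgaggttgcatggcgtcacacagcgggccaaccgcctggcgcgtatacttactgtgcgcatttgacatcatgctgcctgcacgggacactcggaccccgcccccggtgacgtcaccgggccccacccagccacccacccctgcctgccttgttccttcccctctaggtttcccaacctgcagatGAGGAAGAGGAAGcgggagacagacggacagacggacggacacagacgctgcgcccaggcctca
Csf3r promoter: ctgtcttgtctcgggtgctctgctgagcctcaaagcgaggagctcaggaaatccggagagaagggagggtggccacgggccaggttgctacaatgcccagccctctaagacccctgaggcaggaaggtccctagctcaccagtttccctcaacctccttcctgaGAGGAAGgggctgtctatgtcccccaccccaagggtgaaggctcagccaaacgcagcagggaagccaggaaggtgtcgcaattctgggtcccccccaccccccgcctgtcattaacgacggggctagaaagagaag
Csf2ra held 2 matches that share a base, starting 14 and 8 bases before the RefSeq start, and Csf3r held 1, starting 86 bases before it. Csf2rb2 held 2 matches on the other strand, of which 1 began 168 bases before the RefSeq start and 1 after it. By the gene coordinates given above, the Csf3r match lies within the gene and both Csf2rb2 matches lie before it. Csf1 held none, and no promoter of the 4 held TTGCNNAA. Among all 32851 promoters of the same length, 13.6% held GAGGAAG and 10.8% held TTGCNNAA. Such matches describe the letters only. Spi1, which encodes PU.1, had 423, 393 and 304 CPM in lining, 361, 342 and 337 CPM in interstitial and 318, 312 and 306 CPM in BMDM samples, and it was not called in any comparison.

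Across the 3 comparisons, none of the 6 tested members was called for lining against interstitial, 3 of 6 for lining against BMDM and 4 of 6 for interstitial against BMDM. All 7 called differences were higher in the sorted cells. Of all tested genes, 5.79% were called between lining and interstitial samples (3.74% higher and 2.05% lower in lining). In lining 23.1% were called higher and 20.5% lower than in BMDM, and in interstitial samples 23.4% were called higher and 21.3% lower than in BMDM. At an unadjusted p under 0.05 edgeR had 2 members between lining and interstitial samples, the beta chains, against 2 called by DESeq2 and 1 by limma-voom after adjustment. The median log2 difference of the 6 members was -0.32 for lining against interstitial, 1.02 for lining against BMDM and 1.05 for interstitial against BMDM, while the median over all tested genes was between -0.01 and 0.00014. Both comparisons against BMDM share the BMDM libraries.

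**Figure D4:**
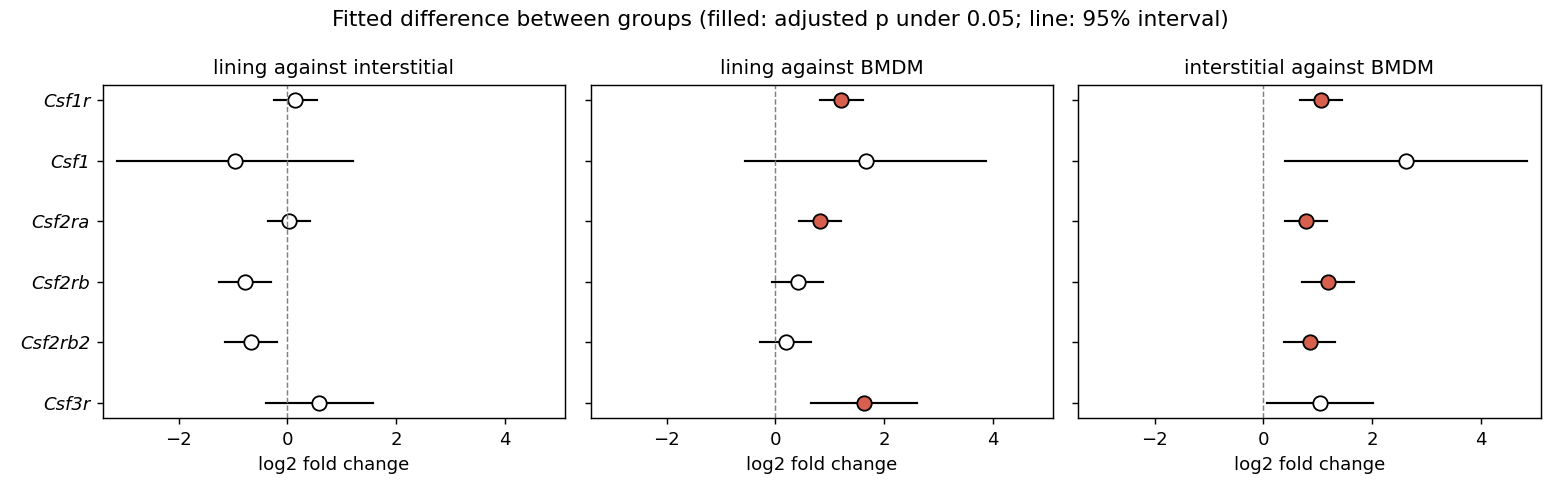
Fitted log2 fold change (points) with its 95% interval (lines) for the 6 tested genes in lining against interstitial, lining against BMDM and interstitial against BMDM. Filled points have an adjusted p under 0.05. Csf1r and Csf2ra are filled in both comparisons with BMDM, Csf3r in lining against BMDM only and the beta chains in interstitial against BMDM only, and the lines of Csf1 are the longest.

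Partners and relatives of the receptors were sparse. Il3ra, the alpha chain that binds interleukin 3, was 2.498-fold higher in interstitial (43.7 ± 5.16 CPM) than in BMDM samples (17.4 ± 0.631 CPM; log2 fold change 1.32 ± 0.31, adjusted p = 0.00415), and averaged 27.2 CPM in lining. It was the only 1 of 6 other cytokine and receptor partner genes to pass the filter. Il5ra, the interleukin 5 receptor alpha chain, had 11 counts in interstitial E, 12 in interstitial F and 0 in the other libraries. The cytokine genes Csf2 and Csf3 had at most 3 counts (interstitial F) and 6 counts (lining C), and Il3 and Il5 had 0 counts in all libraries. Among the 4 other class III receptor tyrosine kinases, the family of Csf1r, none was called between lining and interstitial samples, where the unadjusted p was under 0.05 for 1 gene and DESeq2 and limma-voom called 1 each. Kit, the stem cell factor receptor, was lower in lining (log2 fold change -2.64 ± 0.69, adjusted p = 0.00836) and in interstitial samples (-3.22 ± 0.69, adjusted p = 0.00236, or -4.07 without interstitial E) than in BMDM. Flt3, a dendritic cell and progenitor receptor, was higher in lining (8.05 CPM) and interstitial samples (10.2 CPM) than in BMDM (1.22 CPM), a call lost for lining without any of 4 libraries (lining B and the 3 BMDM libraries) or with limma-voom, and for interstitial without BMDM G. Pdgfra, a fibroblast receptor with 2 counts in BMDM, was 27.5-fold higher in lining (95% counting interval 6.31 to 249) and 174-fold higher in interstitial samples (46.8 to 1455) than in BMDM, and its lining call was lost without BMDM G or BMDM I. Without BMDM H, which held the 2 counts, these folds were at least 12.7 and at least 80.1.

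Of the genes that handle M-CSF receptor shedding or bind interleukin 34 otherwise, none of 3 tested was called between lining and interstitial samples (1 had an unadjusted p under 0.05; DESeq2 called 1 and limma-voom 0). Sdc1, a proteoglycan that binds interleukin 34, was lower in lining (5.08 CPM) and in interstitial samples (4.07 CPM) than in BMDM (20.6 CPM), with log2 fold changes of -1.93 ± 0.65 (adjusted p = 0.0301) and -2.26 ± 0.65 (adjusted p = 0.0142). The lining call was lost without lining B or any BMDM library, and the interstitial call without interstitial E or BMDM G. When C and F were both left out, 2 of the 3 genes were lower in lining than in BMDM. Adam17, the protease that sheds CSF1R from the cell surface, was lower in interstitial (159 ± 20.3 CPM) than in BMDM samples (278 ± 8.16 CPM; -0.80 ± 0.19, adjusted p = 0.00442). Adam10, a related protease, was also lower there (-0.39 ± 0.14, adjusted p = 0.0456), and its call was lost with DESeq2 and in 6 of the 9 refits that leave out a library. Ptprz1, a phosphatase that binds interleukin 34 in the brain, had 0 counts in all libraries.

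Some transcripts on a broad list of signalling genes linked to CSF1R differed between the joint populations although the receptor did not pass the test. The list also holds genes that serve other receptors, Pik3r5 among them. Of 30 such genes, all tested, 7 were higher and 1 lower in lining than in interstitial samples. Of all tested genes, 3.74% were called higher and 2.05% lower in this comparison. Leaving out 1 library put the higher calls between 3 and 9, with lining A, lining B, interstitial E and each BMDM library moving the count, and gave 2 lower calls without interstitial F. Pik3r5, a regulatory subunit of phosphoinositide 3-kinase gamma, was 2.73-fold higher in lining (544 ± 36.5 CPM) than in interstitial samples (199 ± 51.3 CPM; adjusted p = 4.09e-04). Inpp5d, which encodes the lipid phosphatase SHIP1, was 1.92-fold higher in lining (773 ± 108 CPM) than in interstitial samples (402 ± 41.2 CPM; adjusted p = 0.00172). Vav1, a signalling protein of blood cells, was 1.89-fold higher in lining than in interstitial samples (adjusted p = 0.00867). Dok2, an adaptor that restrains tyrosine kinase signals, was 2.37-fold lower in lining (115 ± 14.9 CPM) than in interstitial samples (273 ± 28.2 CPM; adjusted p = 2.17e-04). These 4 calls held in all refits that leave out a library.

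Against BMDM the same 30 genes moved both ways. In lining samples 10 were higher and 7 lower than in BMDM, and in interstitial samples 6 were higher and 10 lower. Over all tested genes the shares were 23.1% higher and 20.5% lower in lining, and 23.4% higher and 21.3% lower in interstitial samples. These shares also stand beside the counts against BMDM of the lists below. Lower calls came down to 4 in lining without any of the BMDM libraries and to 5 in interstitial without BMDM G or BMDM H. Gab1, a docking protein for receptor tyrosine kinases, averaged 28.1 ± 5.04 CPM in lining, 50.01 ± 5.70 CPM in interstitial and 0.776 ± 0.146 CPM in BMDM samples, and was 35.7-fold (adjusted p = 5.90e-08) and 63.9-fold (adjusted p = 1.81e-08) higher in the sorted groups. Fgr, a Src family kinase, was 18.4-fold higher in lining and 6.80-fold higher in interstitial samples than in BMDM (adjusted p = 1.98e-04 and 0.00207), and without interstitial F its interstitial log2 fold change was 1.86 instead of 2.77. Cblb, a ubiquitin ligase that ends receptor signals, was 3.78-fold lower in lining and 4.42-fold lower in interstitial samples (adjusted p = 0.00331 and 0.00156), and without interstitial F the interstitial log2 fold change was -2.80 instead of -2.14. Gab3, an adaptor of the M-CSF receptor, was 2.42-fold higher in lining than in BMDM (adjusted p = 0.00217). In interstitial samples Gab3 was 1.75-fold higher (adjusted p = 0.0256), a call lost without interstitial E, any 1 BMDM library or the filter on low counts. Plcg2, a phospholipase, was 3.51-fold lower in interstitial samples than in BMDM (adjusted p = 9.86e-06) and 1.89-fold lower in lining (adjusted p = 0.00161).

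Factors known to act at the Csf1r promoter and enhancer were measured with it. Of 16, all tested, 2 were higher in lining than in interstitial samples and 0 were lower, 12 were higher and 1 lower in lining than in BMDM, and 11 were higher and 2 lower in interstitial than in BMDM. At an unadjusted p under 0.05 edgeR had 3 between lining and interstitial samples, DESeq2 and limma-voom called 2 each, and without lining B 1 gene was lower. Without BMDM G or BMDM H the 11 higher interstitial calls came down to 7 or 6. Cebpa, a myeloid transcription factor, was 2.01-fold higher in lining (366 ± 63.1 CPM) than in interstitial samples (183 ± 32.01 CPM; adjusted p = 0.00300). Irf8, a factor of the mononuclear phagocyte lineage, was 1.87-fold higher in lining (149 ± 16.3 CPM) than in interstitial samples (79.6 ± 4.49 CPM; adjusted p = 0.00165). The immediate early genes Egr1, Egr2 and Fos, which respond within minutes to many stimuli, showed the widest gap to BMDM. Egr1 had 637 to 843 CPM in lining, 465 to 916 CPM in interstitial and 0.0994 to 0.346 CPM in BMDM samples. Fos had 1504 to 1866 CPM in lining, 1398 to 2147 CPM in interstitial and 18.8 to 24.8 CPM in BMDM samples. Egr2 was 97.7-fold and Klf4, a macrophage and monocyte factor, 24.1-fold higher in lining than in BMDM (adjusted p = 4.17e-07 and 1.36e-09), and in interstitial samples they were 86.3-fold and 28.4-fold higher (adjusted p = 4.94e-07 and 8.51e-10). Such genes can also respond to tissue dissociation and sorting, which the sorted groups share and BMDM do not by the labels, so these cannot be told apart.

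The JAK-STAT genes of the GM-CSF and G-CSF receptors were not called between the joint populations in the main fit. None of 16 was called between lining and interstitial samples by edgeR, 5 had an unadjusted p under 0.05, and DESeq2 called 1 and limma-voom 0. In lining 3 were lower without lining C, and 2 when C and F were both left out. In lining samples 8 were higher and 1 lower than in BMDM, and in interstitial samples 11 were higher and 1 lower. Higher calls came down to 4 in lining without lining B or any BMDM library, and to 7 in interstitial without BMDM I. Socs3, an inhibitor of cytokine receptors including CSF3R, averaged 304 ± 56.5 CPM in lining, 407 ± 58.5 CPM in interstitial and 1.91 ± 0.152 CPM in BMDM samples. It was 158-fold higher in lining (adjusted p = 1.08e-09) and 211-fold higher in interstitial samples (adjusted p = 8.13e-10) than in BMDM. Stat3 was 2.54-fold higher in lining (adjusted p = 3.84e-06) and 2.36-fold higher in interstitial samples (adjusted p = 7.28e-06) than in BMDM. The survival gene Mcl1 was 2.25-fold higher in lining (adjusted p = 2.70e-04) and 2.74-fold higher in interstitial samples (adjusted p = 5.04e-05) than in BMDM. Bcl2l1, another survival gene, was 3.38-fold lower in lining and 4.63-fold lower in interstitial samples than in BMDM (adjusted p = 5.61e-07 and 9.57e-08).

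Feedback inhibitors induced by STAT5 were concentrated in a few libraries. Cish had 0.970, 2.10 and 23.3 CPM in lining A to C, 0.443, 9.10 and 104 CPM in interstitial D to F and 0.346, 0 and 0.323 CPM in BMDM G to I. Socs2 had 0, 0.0954 and 2.63 CPM in lining, 1.77, 3.37 and 16.6 CPM in interstitial and 0.389, 0.298 and 0.277 CPM in BMDM samples. In both sorted groups 1 library, C or F, was far above its companions. Cish was higher in interstitial than in BMDM samples (log2 fold change 7.32 ± 2.07, adjusted p = 0.0236), at 4.45 without interstitial F, and the call was lost without any 1 of the BMDM libraries or without the filter on low counts. Socs2 was also higher there (4.46 ± 1.23, adjusted p = 0.0110), and its call was lost without interstitial F (2.98), BMDM H or BMDM I. Interstitial F was the library with the most Csf2rb, Csf2rb2 and Csf1, while lining C had the most Csf2rb and the least Csf2rb2, Csf1 and Csf2ra of the lining libraries. F also had the most of the monocyte marker Chil3 (238 CPM) and the eosinophil marker Alox15 (276.5 CPM). Which cytokine acted on Cish and Socs2 was not tested.

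Of 12 genes associated with GM-CSF in macrophages and dendritic cells, 10 were tested. Their levels do not show which cytokine acted on them, and this was not tested. In lining 0 were higher and 1 lower than in interstitial samples. Against BMDM 3 were higher and 1 lower in lining, and 6 were higher and 1 lower in interstitial samples. The gene lower in lining than in interstitial samples was Cd86, a costimulatory molecule (121 ± 15.9 CPM in lining and 217 ± 65.1 CPM in interstitial samples, adjusted p = 0.0409). It lost this call in 8 of 9 refits that leave out a library, with limma-voom and with only the 2 groups compared. Without interstitial D 2 genes were lower in lining than in interstitial and 5 higher in lining than in BMDM, and without interstitial F 2 were lower in each sorted group than in BMDM. When C and F were both left out, 3 were lower in lining and 2 in interstitial samples than in BMDM. The chemokine gene Ccl17 had 0, 1.145 and 17.3 CPM in lining A to C, 4.43, 18.2 and 334 CPM in interstitial D to F and 0 counts in BMDM. It was at least 2106-fold higher in interstitial samples than the 3-count floor of the BMDM group, and between at least 338-fold (without interstitial F) and at least 4785-fold (without interstitial E) in the refits. Its call was lost without lining A, without any BMDM library and without the filter on low counts. The chemokine gene Ccl22 had 0, 4.87 and 6.38 CPM in lining, 0, 60.5 and 165 CPM in interstitial and 0.605 to 0.795 CPM in BMDM samples (log2 fold change for interstitial against BMDM 6.69 ± 1.58, adjusted p = 0.0115, lost without any BMDM library and 5.40 without interstitial F).

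Irf4, a transcription factor of monocyte-derived cells, had 50.4, 59.1 and 93.9 CPM in lining A to C, 65.2, 153 and 374 CPM in interstitial D to F and 2.16, 1.84 and 1.38 CPM in BMDM G to I. It was 37.4-fold higher in lining (adjusted p = 4.04e-04) and 110-fold higher in interstitial samples (adjusted p = 1.07e-04) than in BMDM, with a log2 fold change for interstitial samples of 6.78 ± 0.71 that was 5.92 without interstitial F. Olr1, a scavenger receptor for oxidised lipoprotein, had 127, 83.9 and 123 CPM in lining A to C, 0, 19.1 and 61.0 CPM in interstitial D to F and 0 counts in BMDM. Interstitial D thus overlapped with BMDM. Olr1 was at least 1920-fold higher in lining and at least 587-fold higher in interstitial samples, or at least 338-fold in interstitial samples without F. Without any 1 BMDM library the floor is higher, and the lining bound was as low as 1233-fold without BMDM G. Pparg, a nuclear receptor that GM-CSF induces in alveolar macrophages, was 13.7-fold lower in lining (2.28 ± 0.991 CPM) than in BMDM (31.0 ± 2.26 CPM; adjusted p = 4.01e-04). In interstitial samples it was also lower than in BMDM (log2 fold change -3.30, adjusted p = 5.92e-04).

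**Figure D5:**
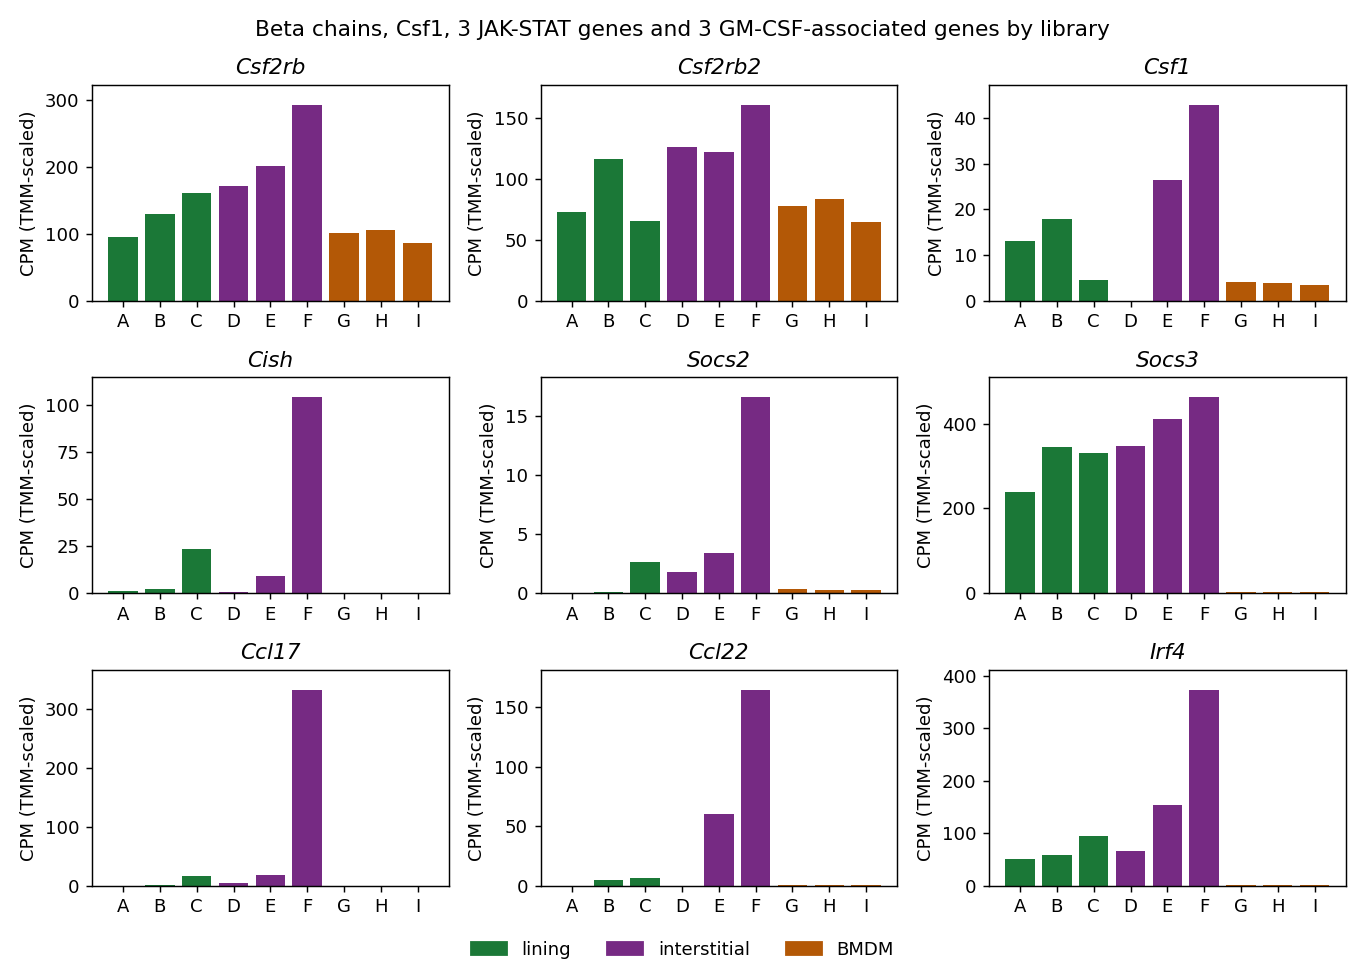
Level in CPM (bars, linear axes from 0) of Csf2rb, Csf2rb2, Csf1, the JAK-STAT genes Cish, Socs2 and Socs3 and the GM-CSF-associated genes Ccl17, Ccl22 and Irf4 in libraries A to I. Interstitial F has the tallest bar in every panel, and in the Cish panel lining C at 23.3 CPM comes next. The panels are a selection, and other members and listed genes had other patterns. Csf1r and Csf3r were lowest of the sorted libraries in F, Cd86 was highest in interstitial D (263 CPM) and Olr1 in lining A (127 CPM).

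Markers of other cells were also uneven across these libraries. The 9 dendritic cell markers summed to 21.3, 73.0 and 80.0 CPM in lining A to C, 919, 385 and 380 CPM in interstitial D to F and 8.95 to 9.59 CPM in BMDM samples, with Xcr1 at 0 counts in lining and Clec9a at 0 counts in interstitial samples. The interstitial sums were carried by Clec10a (749.6, 282 and 252 CPM) and Cd209a (115, 51.2 and 32.5 CPM), while Xcr1 was below 1 CPM and Ccr7 had 0 counts in D. The 6 eosinophil markers summed to 8.24, 5.25 and 12.4 CPM in lining, 2.66, 35.5 and 307 CPM in interstitial and 2.42 to 2.73 CPM in BMDM samples, with Il5ra at 0 counts in lining and BMDM and Epx, a granule peroxidase, at 0 counts in lining C, interstitial F and BMDM. Alox15, a lipoxygenase, made up 276.5 CPM of the sum in interstitial F, and the other markers there had at most 14.0 CPM (Siglecf). The 7 mast cell and basophil markers summed to 2.91, 19.2 and 8.64 CPM in lining and 15.5, 49.1 and 50.8 CPM in interstitial samples, and the 5 keratinocyte markers to at most 2.34 CPM in any library. The 6 monocyte markers summed to 434 to 475 CPM in lining, 58.5 to 368 CPM in interstitial and 69.2 to 91.5 CPM in BMDM samples. Dendritic cells, eosinophils and mast cells can carry the beta chains, and their part in the Csf2rb and Csf2rb2 values was not tested.

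Of 10 cell cycle genes tied to M-CSF, 5 were lower in each joint population than in culture. All 10 were tested, and none was called between lining and interstitial samples by edgeR (3 had an unadjusted p under 0.05, DESeq2 called 2 and limma-voom 0). In lining 1 was lower than in interstitial samples without interstitial D, without interstitial F or when C and F were both left out. Against BMDM 5 were lower and 0 higher in lining, and 5 were lower and 1 higher in interstitial samples. The 1 higher call was lost without interstitial E. Ccnd1, the cyclin D gene that M-CSF induces, averaged 88.2 ± 15.6 CPM in lining, 99.4 ± 30.4 CPM in interstitial and 839 ± 62.0 CPM in BMDM samples. It was 9.45-fold lower in lining (adjusted p = 2.48e-07) and 8.51-fold lower in interstitial samples (adjusted p = 3.49e-07). Mki67, a marker of cycling cells, was 9.75-fold lower in lining (134 ± 74.4 CPM) and 11.7-fold lower in interstitial samples (111 ± 62.6 CPM) than in BMDM (1315 ± 75.0 CPM; adjusted p = 0.00149 and 9.75e-04). Ccnd2, another cyclin D gene, was 12.7-fold lower in lining than in BMDM (adjusted p = 0.00133), and 3.70-fold lower in interstitial samples (adjusted p = 0.0231), a call lost without interstitial E, without any BMDM library or without the filter on low counts (log2 fold change -1.89 ± 0.59, or -2.94 without interstitial F). E2f1, a factor of S phase entry, was 3.33-fold lower in lining than in BMDM (adjusted p = 6.04e-05). Its log2 fold change for interstitial against BMDM was -1.05 (adjusted p = 0.00179). Cdk4, the kinase partner of cyclin D, was 3.31-fold lower in interstitial samples than in BMDM (adjusted p = 1.34e-06). Its log2 fold change for lining against BMDM was -1.65 (adjusted p = 1.96e-06). Csf1r thus had its higher levels in the groups with the lower levels of these transcripts.

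For each tested member the genes with the most similar pattern over the 9 libraries were found among 10078 genes, by Pearson's r of log2 CPM. The libraries of a group share their source, so r can reflect differences between groups as well as between single libraries, and is a description. Over the 6 sorted libraries alone, r of the genes named here ran from 0.922 (Csf2ra with Icam1) to 0.994 (Csf1r with Gm10605). It was 0.991 for Csf1 with Ankrd50 and for Csf2rb2 with Ltb4r1. Csf1r was closest to Unc93b1 (r = 0.993), which encodes a chaperone of endosomal Toll-like receptors, Tef (0.993) and Gm10605 (0.993). Csf1 was closest to Ankrd50 (0.975), Sh3bp4 (0.974) and Tspyl1 (0.973), and Csf2ra to Borcs5 (0.985), Epm2a (0.984) and the adhesion gene Icam1 (0.983). Csf2rb was closest to Ccl17 (0.976), Il1rl1 (0.974), the interleukin 33 receptor, and Mt2 (0.973). Csf2rb2 had Srf (0.972), Ltb4r1 (0.9495) and Klrb1b (0.949) as its nearest genes, and Csf3r had Wls (0.982), Dcaf5 (0.974) and Fuz (0.959).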

How the data were processed

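The authors deposited a table of raw read counts per gene for the 9 libraries. Per the file headers, featureCounts 1.6.1 counted reverse-stranded reads over exons of Ensembl genes (GRCm38, release 91). Per the submitters' processing notes, bcl2fastq 2.17.1.14, cutadapt 1.15 and STAR 2.5.4a were also used, and per the labels' protocols the reads were 101-base single reads of stranded libraries made from 500 ng RNA. The treatment of reads that fit several genes is not given in the sources used here. GENCODE names of that build were found for 53274 of the 53465 genes.

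Genes were filtered with filterByExpr (minimum count 10, minimum total 15), which left 12610, and scaled by TMM (factors 0.941 to 1.04). The quasi-likelihood test of edgeR 4.0.16 (R 4.3.3) used 1 fit over all 9 libraries with group as the term (robust, 6 residual degrees of freedom). P-values were 2-sided and adjusted over all genes tested by the Benjamini-Hochberg method. Genes were called at an adjusted p under 0.05. SE was obtained by dividing the log2 fold change by the root of its F value, and SD describes the 3 libraries within a group. RPKM divides scaled CPM by exonic length. Folds against a group with 0 counts use 3 counts over that group's summed library, and those against 1 to 3 counts carry Clopper-Pearson intervals, which cover counting error only. Shares and ratios were compared by exact permutation over libraries. The scripts were tested on simulated counts. Alternatives were DESeq2 1.42.0, limma-voom (limma 3.58.1), DESeq2 size factors in edgeR, no filter, a mean of at least 1 CPM, only the 2 groups compared, and leaving out libraries.

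From each list of related genes, up to 4 called genes per comparison were named, those with the largest absolute log2 fold change, along with genes of the marker lists. For Stat3, Mcl1, Gab3, Plcg2, Pparg, E2f1 and Cdk4 the value of the other sorted group against BMDM was given as well. Genes with the most similar pattern were the 3 with the highest r among tested genes with a mean of at least 5 CPM (log2 CPM with a prior count of 2). Values of Spi1, Cish and Socs2 in single libraries, and the genes at 0 counts, were given after they had been seen. The members and the lists were chosen with earlier results of these data known.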

Additional observations from a re-analysis of the deposited data

How the results depend on the processing

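The members' log2 differences were counted once for each gene, comparison and alternative setting. They kept direction and side of the threshold in 265 cases, passed the threshold newly in 15, lost it in 2 and changed sign in 6. For lining against interstitial, 709 genes were called higher and 589 lower with DESeq2, 255 and 111 with only the 2 groups compared, and 445 lower without lining C and interstitial F together, against 471 and 259 in the report. Without C and F, Csf1 turned to 0.066, Csf2rb was -0.73 and Csf3r for interstitial against BMDM was 1.45. With DESeq2, Csf2rb and Csf2rb2 were -0.81 and -0.70 for lining against interstitial, and Csf3r was 1.09 for interstitial against BMDM. Csf2rb was -0.78 with limma-voom and -0.80 without the filter. Csf1 for lining against BMDM was 1.65 and passed (adjusted p = 0.0136) with only the 2 groups compared. The cause was not tested.

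Leaving out 1 library at a time gave 276 to 517 genes called higher and 120 to 371 lower for lining against interstitial, 2061 to 3174 and 1851 to 3232 for lining against BMDM, and 2154 to 3247 and 1992 to 3024 for interstitial against BMDM. For lining against interstitial Csf1r ranged from -0.049 to 0.33, Csf2ra from -0.14 to 0.20, Csf2rb from -0.97 to -0.57 and Csf2rb2 from -1.002 to -0.51. For lining against BMDM Csf1 ranged from 1.13 to 2.02, Csf2rb2 from -0.17 to 0.33 and Csf3r from 1.43 to 1.73. For interstitial against BMDM Csf1 ranged from 1.89 to 3.13 and Csf3r from 0.59 to 1.44. The Csf2rb2 share differed by -2.47 to 6.82 percentage points for lining minus interstitial and -7.52 to 1.77 for lining minus BMDM. The Csf1 share differed by -0.344 to 0 percentage points for interstitial minus BMDM.

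No paired analysis was possible because each library letter is used once and no label ties a lining to an interstitial or BMDM sample. Depth limits Il34 and the library zero of Csf1: 3 counts are worth 1.34 CPM in interstitial D and 0.0477 CPM over the BMDM group.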
